A study of Mus musculus with 4 samples.

Results

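The genes described here are Ttr, Enpp2, Kl, Folr1, Kcnj13, Clic6, Aqp1 and Foxj1, which are commonly used to recognise the choroid plexus and the ependyma of the brain. They were chosen by symbol, and all 8 were found among the 24873 genes listed in the RNA-Seq table. Cerebral cells of mice were sequenced on day 9 in 2 control libraries and 2 tamoxifen libraries. Each library was made from cells pooled from 3 mice. Mice of both groups carried the VE-cadherin cre/ERT2 transgene and Mgp fl/fl, given in the labels as Cdh5cre;Mgpflox/flox. Mice of mixed sexes were injected with tamoxifen at 75 mg/kg on 5 consecutive days, starting at 10 weeks of age, whereas control mice were left without it. The recombinase is driven by the VE-cadherin promoter, which is active in endothelial cells, and is switched on by tamoxifen. Since no library came from tamoxifen-treated mice with an intact Mgp gene, the effect of tamoxifen itself and that of the deletion cannot be told apart here. The sequenced cells are described by the study as CD31+CD45-, whereas the sample labels name them as tdTomato+ cells of the brain.

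The choroid plexus is a folded epithelium in the brain ventricles that rests on fenestrated capillaries and secretes cerebrospinal fluid. Its cells move ions and water into the ventricle and release carrier proteins, with transthyretin among the most abundant. The ependyma is the neighbouring epithelium of the ventricle walls, and its cells carry tufts of motile cilia that are built under the control of FOXJ1. Neither epithelium is endothelial, and none of the 8 genes is a defining gene of brain endothelium, although Aqp1 is also made by red blood cells and by endothelium outside the brain.

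Values are normalized counts per gene, which are read counts divided by a factor for each library. Libraries held between 35387438 and 49799321 reads on genes, and libraries of the same group differed by more than sampling noise. A gene was called when the adjusted p from limma with Benjamini-Hochberg (BH) adjustment was under 0.05 and the log2 fold change, tamoxifen minus control on log2(normalized count + 1), was over 1 in size. The test covered 20485 genes whose mean reached 10 normalized counts, and all 8 genes passed this filter. A permutation test of 2 against 2 libraries cannot give a two-sided p below 0.333, so p-values come from limma alone. They rest on the spread between these libraries, with the variance of each gene drawn toward a trend shared over genes. Mgp, the deleted gene, was at 1094 and 1352 normalized counts in controls and at 945 and 909 with tamoxifen. Its log2 fold change was -0.39 (SE 0.18, limma BH-adjusted p = 0.0986). With libraries scaled to equal totals it was 0.08, and under quantile normalization it was -0.65 (limma, BH-adjusted p = 0.0129). All 12 endothelial genes examined were called lower with tamoxifen, Pecam1 (CD31) by 2.85 on the log2 scale, while Ptprc (CD45) was called higher, at 50.7 and 83.9 normalized counts in controls and at 1423 and 1119 with tamoxifen.

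Of the 8 genes, 6 were called higher with tamoxifen and 0 lower. Among all tested genes 44.7% were called, 28.6% higher and 16% lower. Both tamoxifen libraries lay above both control libraries for 7 of the 8 genes, as they did for 43.1% of all tested genes. The median log2 fold change was 3.27 over the 8 genes and 0.05 over all tested genes. Together the 8 genes took 0.0135% and 0.0190% of the normalized counts in control libraries 1 and 2, and 0.0638% and 0.213% in tamoxifen libraries 1 and 2. The share was highest in tamoxifen library 2, which also stood above tamoxifen library 1 for most of the genes singly. Few genes carried the shares, with Enpp2 alone at 0.0112% in control library 1. In tamoxifen library 2, Ttr was at 0.116% and Enpp2 at 0.0652%. In bulk samples, more cells of a type and more RNA per cell cannot be told apart.

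**Figure D1:**
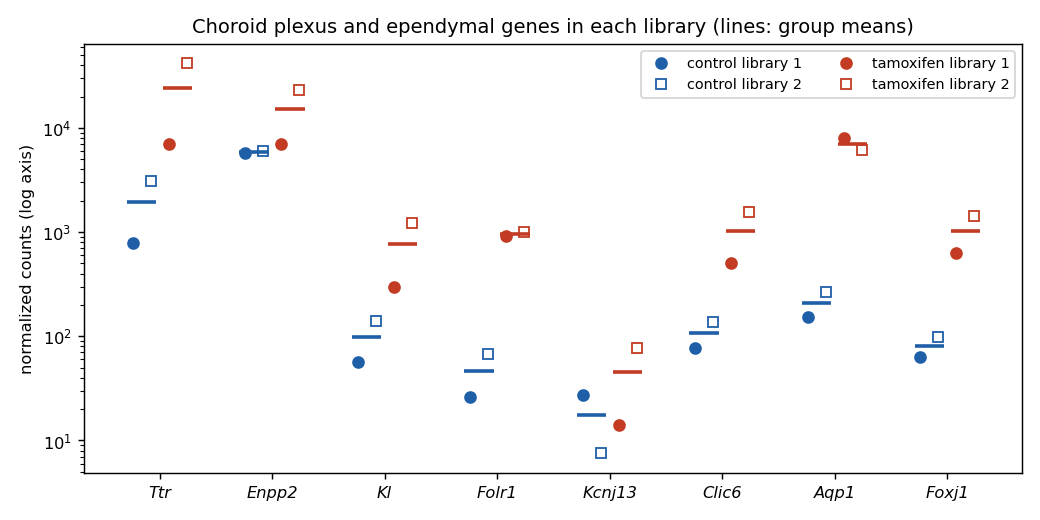
Normalized counts (log axis) of the 8 genes in each library, with circles for library 1 and open squares for library 2 of the control (blue) and tamoxifen (red) groups, and lines at the group means. Both tamoxifen libraries lie above both control libraries for 7 genes, and Kcnj13 is the gene whose groups overlap.

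Ttr encodes transthyretin, the carrier of thyroxine and of retinol-binding protein that the choroid plexus secretes into the cerebrospinal fluid. The gene lies at chr18:20797253-20807467 on the plus strand of GRCm39, and its canonical transcript has 4 exons. Ttr was at 793 and 3108 normalized counts in controls 1 and 2, and at 7069.6 and 41530 in tamoxifen libraries 1 and 2. The groups did not overlap, but the libraries within each group lay far apart, with library 2 higher in both. The mean was 1950.4 ± 1637 normalized counts in controls and 24300 ± 24367 with tamoxifen (SD, n = 2 each), a ratio of 12.5. The log2 fold change was 3.45 (SE 0.84, 95% interval 1.50 to 5.40), and Ttr was called higher (limma, BH-adjusted p = 0.00906). Without tamoxifen library 2 the log2 fold change was 2.17 and the adjusted p 0.237, and without tamoxifen library 1 they were 4.72 and 0.0809 (limma, BH).

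Kl encodes klotho, a membrane and secreted protein that acts as co-receptor of FGF23 and is made in kidney and choroid plexus. It lies at chr5:150876072-150917284 on the plus strand, with 5 exons. Controls held 56.2 and 140 normalized counts of Kl, and the tamoxifen libraries 300.2 and 1221. As for Ttr, the groups did not overlap and library 2 was the higher in each. Its log2 fold change was 2.76 (SE 0.68, limma BH-adjusted p = 0.00937), and Kl was called higher. It lost the call without tamoxifen library 2, at a log2 fold change of 1.75 and an adjusted p of 0.215, without tamoxifen library 1, at 3.77 and 0.0707, and under quantile normalization, at 1.87 and 0.0908 (limma, BH).

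Enpp2 encodes autotaxin, a secreted enzyme that makes lysophosphatidic acid and is abundant in choroid plexus epithelium. It spans chr15:54701324-54816288 on the minus strand, with 25 exons in its canonical transcript. Enpp2 was the most evenly expressed of the 8 genes in controls, at 5757 and 5948 normalized counts, and was at 7083 and 23355 with tamoxifen. The 4 values did not overlap between groups, but tamoxifen library 1 was only 1.19 times the higher control, and most of the difference came from tamoxifen library 2. Its log2 fold change was 1.14 (SE 0.47, 95% interval 0.05 to 2.22), and Enpp2 was not called (limma, BH-adjusted p = 0.0687). Without tamoxifen library 1 it was called, at a log2 fold change of 1.997, and without tamoxifen library 2 it was 0.28.

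Folr1 encodes the folate receptor alpha, which carries folate across the choroid plexus into the cerebrospinal fluid. It lies at chr7:101507537-101520014 on the minus strand, with 7 exons. Folr1 was low in controls, at 26.0 and 67.6 normalized counts, and was at 922 and 999 with tamoxifen. The tamoxifen libraries were close to each other, and the lower was 13.6 times the higher control. A log2 fold change of 4.48 was found (SE 0.45, limma BH-adjusted p = 0.00014), and Folr1 was called higher. With a single tamoxifen library the value stayed at 4.54 and 4.42, but the adjusted p was 0.0618 and 0.0684 (limma, BH), without tamoxifen libraries 1 and 2 in that order. Folr1 overlaps Anapc15 on the other strand, which was at 151 and 131 normalized counts in controls and 348 and 330 with tamoxifen. The library kit keeps the strand, but whether the counting used it is not given in the sources used here.

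Kcnj13 encodes Kir7.1, an inward-rectifier potassium channel of the apical membrane of choroid plexus and retinal pigment epithelium. It lies at chr1:87309135-87322456 on the minus strand, with 3 exons, within the span of Gigyf2 on the other strand. Kcnj13 had 27.4 and 7.51 normalized counts in controls, from 20 and 6 reads, and 14.1 and 77.6 with tamoxifen, from 13 and 108 reads. The groups overlapped, and tamoxifen library 1 lay between the controls. The log2 fold change was 1.15 (SE 0.93, 95% interval -1.02 to 3.31, limma BH-adjusted p = 0.317), and Kcnj13 was not called. Without tamoxifen library 2 it was -0.04. Gigyf2, which was at 5475 and 5204 normalized counts in controls and 5331 and 4769 with tamoxifen, showed no such spread.

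Clic6 encodes a chloride intracellular channel protein that is prominent in choroid plexus epithelium. It lies at chr16:92282624-92338739 on the plus strand, with 6 exons. Normalized counts of Clic6 were 76.7 and 136 in controls, and 503 and 1543 with tamoxifen. The groups did not overlap, and tamoxifen library 2 was the highest. Clic6 changed by 3.09 on the log2 scale (SE 0.53, limma BH-adjusted p = 0.00164) and was called higher. Without tamoxifen library 2 the value was 2.29, with an adjusted p of 0.0938 (limma, BH).

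Aqp1 encodes aquaporin 1, the water channel of the apical membrane of the choroid plexus and also a main water channel of red blood cells. It lies at chr6:55313068-55325540 on the plus strand, with 4 exons. Controls held 152 and 267 normalized counts of Aqp1, against 7930.1 and 6142 with tamoxifen. It had the largest fold change of the 8 genes, the ratio of group means being 33.6, and was the only one of them that was lower in tamoxifen library 2 than in library 1. On the log2 scale the change was 5.11 (SE 0.28, limma BH-adjusted p = 1.2e-05). The call held in all 14 alternatives tried, with log2 fold changes from 4.71 to 5.58.

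Foxj1 encodes the forkhead transcription factor that directs the making of motile cilia, and it is expressed in ependyma and choroid plexus. It lies at chr11:116221530-116226225 on the minus strand, with 3 exons. Foxj1 was at 63.0 and 97.6 normalized counts in controls, and at 631 and 1420 with tamoxifen. The lower tamoxifen library was 6.46 times the higher control, and tamoxifen library 2 was again above library 1. The log2 fold change was 3.58 (SE 0.43, limma BH-adjusted p = 0.000288), and Foxj1 was called higher. Without tamoxifen library 2 it was 2.99, with an adjusted p of 0.0581 (limma, BH).

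**Figure D2:**
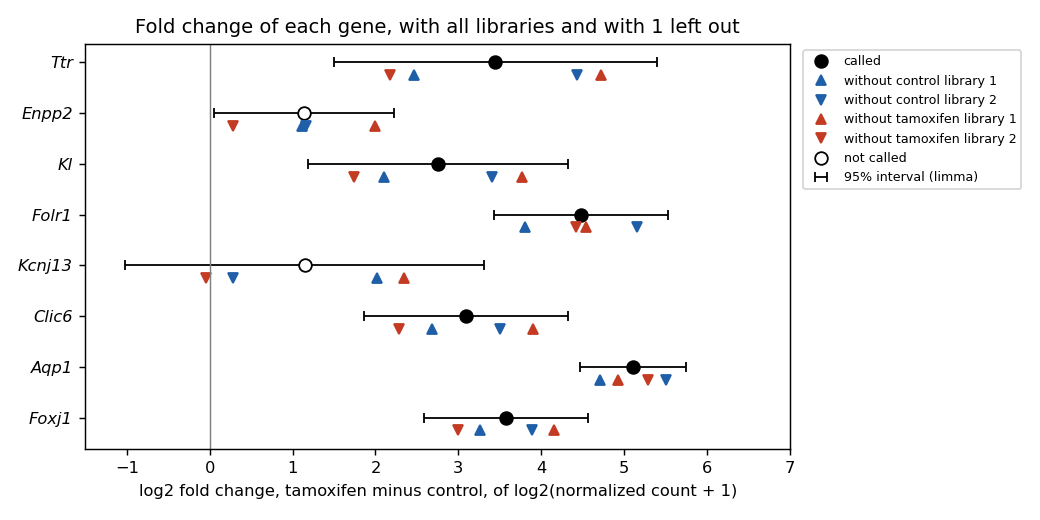
Log2 fold change of each of the 8 genes with its 95% interval from limma (black, filled where called), and the value with a library left out (blue triangles for a control library, red for a tamoxifen library). The values of Aqp1 and Folr1 without either tamoxifen library stay close to the full value, and those of Ttr, Kl, Enpp2 and Kcnj13 spread widely.

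With tamoxifen library 2 left out, 1 of the 8 genes was called, Aqp1, against 12.5% of all tested genes called higher. With tamoxifen library 1 left out, Enpp2, Clic6, Aqp1 and Foxj1 were called, 4 of 8, against 14.8% of all tested genes called higher. These fits hold a single tamoxifen library, whose variation is assumed to equal that of the controls.

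Promoters were read for 7 of the 8 genes as the 300 bases before the start of the canonical transcript in GRCm39. They were searched for 3 motifs on both strands. GTTGCC, the core of the motif of RFX factors, which act with FOXJ1 on cilium genes, was found before Enpp2 and Foxj1, in 2 of 7 promoters and in 11.3% of 16627 promoters of listed protein-coding genes. TAATCC, the core motif of OTX2, a factor of the choroid plexus, was found in 0 of 7 and in 8.17% of all promoters, and the forkhead motif TGTTTAC in 0 of 7 and in 3.07%. The promoters that hold the RFX motif are printed here from 5′ to 3′ on the strand of the gene, with the motif in capitals. It starts 113 bases before the start of Foxj1, whose promoter has 28 CpG dinucleotides (median 12 over all promoters), and 263 bases before that of Enpp2, whose promoter has 5 and lies inside the longer gene span. The window of Foxj1 also holds the start of a long noncoding RNA on the other strand, Gm74433. A match to these letters is a description of the sequence and not a binding site.
Foxj1 promoter, chr11:116226226-116226525, minus strand: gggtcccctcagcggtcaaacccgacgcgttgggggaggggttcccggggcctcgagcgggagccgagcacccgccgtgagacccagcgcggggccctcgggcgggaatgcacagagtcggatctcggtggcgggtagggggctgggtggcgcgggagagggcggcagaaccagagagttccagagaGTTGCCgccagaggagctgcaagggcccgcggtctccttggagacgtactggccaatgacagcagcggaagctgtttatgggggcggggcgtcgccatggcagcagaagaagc
Enpp2 promoter, chr15:54784107-54784406, minus strand: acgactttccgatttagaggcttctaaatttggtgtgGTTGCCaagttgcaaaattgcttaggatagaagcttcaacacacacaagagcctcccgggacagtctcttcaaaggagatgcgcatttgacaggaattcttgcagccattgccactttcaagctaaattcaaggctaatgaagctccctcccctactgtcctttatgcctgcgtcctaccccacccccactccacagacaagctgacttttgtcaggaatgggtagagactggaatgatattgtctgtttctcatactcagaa

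Levels of different genes were compared per kilobase of canonical transcript. On this scale Ttr rose from 603 and 2362 normalized counts per kilobase in controls to 5372 and 31558 with tamoxifen, and it ranked first of the 8 in all libraries but control library 1. Enpp2 was first there, at 1205 per kilobase, and was at 1245, 1483 and 4890 in control library 2 and tamoxifen libraries 1 and 2. Ttr and Enpp2 overlapped over the control libraries, so their order in controls was not beyond the spread. Aqp1 was at 51.1 and 89.6 per kilobase in controls and 2665 and 2064 with tamoxifen, which placed it above Enpp2 in tamoxifen library 1 and below it in library 2. Folr1 and Foxj1 held the fourth and the fifth rank in either order, Clic6 was the sixth and Kl the seventh in all 4 libraries, and Kcnj13 was lowest throughout, between 1.21 and 12.5 per kilobase.

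The ratio of Ttr to other choroid plexus genes was not constant between libraries. Normalized counts of Ttr were 30.5 and 46.0 times those of Folr1 in control libraries 1 and 2, and 7.67 and 41.6 times in tamoxifen libraries 1 and 2. Against Aqp1 the ratio was 5.22, 11.7, 0.891 and 6.76 in the same order, so tamoxifen library 1 held more Aqp1 than Ttr in normalized counts. Against Clic6 it was 10.3, 22.8, 14.1 and 26.9, and against Foxj1 12.6, 31.8, 11.2 and 29.3. For both of these the ratio followed the library number more than the group. For the other three the ratio was higher in both tamoxifen libraries than in both controls. It was 0.138, 0.523, 0.998 and 1.78 for Enpp2, 14.1, 22.2, 23.5 and 34.0 for Kl, and 29.0, 414, 502 and 535 for Kcnj13.

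Library 2 was the higher within its group for 7 of the 8 genes in controls, as it was for 54.5% of all tested genes, and for 7 of 8 with tamoxifen, as for 42% of all tested genes. The exceptions were Kcnj13 in controls and Aqp1 with tamoxifen. With tamoxifen, library 2 was 5.87 times library 1 for Ttr (95% exact interval 5.73 to 6.03), 4.07 times for Kl, 3.30 times for Enpp2, 3.07 times for Clic6 and 2.25 times for Foxj1. It was 1.08 times library 1 for Folr1 (0.994 to 1.18) and 0.775 times for Aqp1 (0.751 to 0.799). For Kcnj13 it was 5.51 times (3.09 to 10.7), from the fewest reads. The ratios thus ran from below equality for Aqp1 to a wide gap for Ttr. These intervals cover counting error only. In controls the ratio was 3.92 for Ttr, 2.60 for Folr1, 2.50 for Kl, 1.78 for Clic6, 1.75 for Aqp1, 1.55 for Foxj1 and 1.03 for Enpp2. The libraries of a group share a number only as a name, and nothing in the labels ties library 2 of the groups together.

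The same within-group ratio was taken for marker lists of other cells. The median ratio of tamoxifen library 2 to library 1 was 1.99 over 8 astrocyte genes and 2.46 over 28 genes of motile cilia and ependyma. Over 15 choroid plexus genes of the cell surface or secretion it was 2.71. Over all 37 tested genes of the choroid plexus list it was 1.838, below the astrocyte median. The ratio was lower still over the 18 genes of ion and fluid transport in that list. The median ratio was 0.70 over 9 erythrocyte genes and 0.487 over 12 endothelial genes, against 0.946 over all tested genes. For the remaining lists of other cells it was 1.85 (tanycyte), 1.002 (oligodendrocyte), 0.969 (visceral endoderm and fetal liver) and 0.795 (retinal pigment epithelium). Ttr, Kcnj13, Kl, Enpp2 and Clic6 lay above all of these medians, and Aqp1 lay among the lists with medians below 1.

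**Figure D3:**
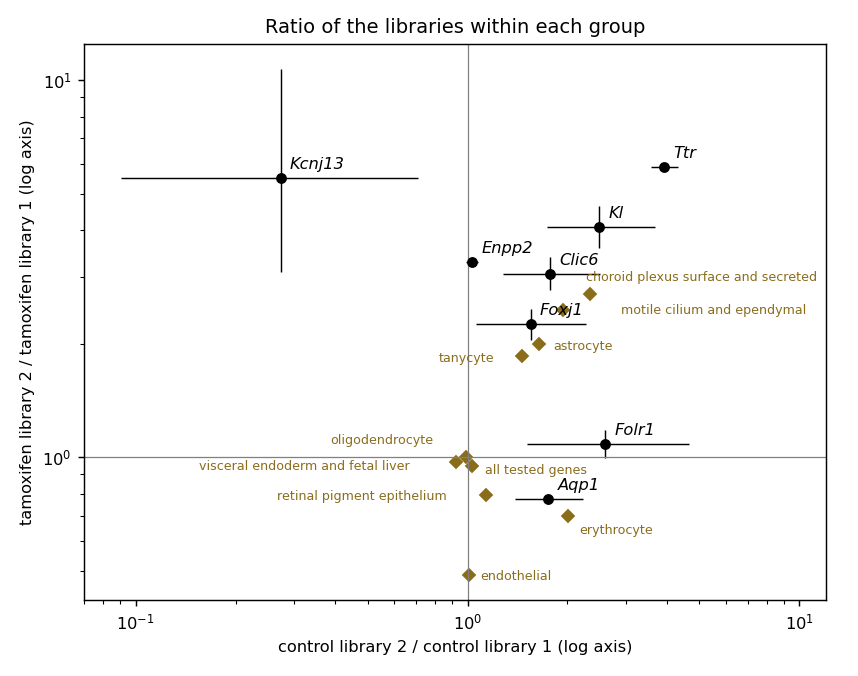
Ratio of library 2 to library 1 within the control group (x, log axis) and within the tamoxifen group (y, log axis) for the 8 genes with 95% exact intervals for counting error (black), and for the medians of marker lists (gold diamonds). Ttr lies at 3.92 and 5.87, Aqp1 at 1.75 and 0.775, and the median of all tested genes at 1.03 and 0.946.

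Profiles over the 4 libraries were compared by the Euclidean distance between centred log2(normalized count + 1) values. The closest pairs among the 8 genes were Kl with Clic6, at a distance of 0.559, Clic6 with Foxj1, at 0.593, and Folr1 with Aqp1, at 0.81. The farthest pair was Kcnj13 with Aqp1, at 4.77. Among all tested genes the nearest to Foxj1 were Myt1, Cspg5 and Drp2, at distances from 0.055 to 0.067. The nearest to Folr1 were Iglon5, Bex4 and Wdr35, the nearest to Aqp1 Pxylp1, Mmp2 and Pygl, and the nearest to Clic6 Hc, Brsk2 and ENSMUSG00000121648. Those of Kl were Gabra2, Lhcgr and Sv2b, and those of Enpp2 were Unc13c, BC049715 and Zmynd10. Ttr was nearest to Defb11, Gm16758 and C230072F16Rik, and Kcnj13 to Lrrtm1, 9430062P05Rik and C78859, at distances of at least 0.121 and 0.368. The neighbours of Ttr had 0 normalized counts in control library 1 and 2.50 to 3.75 in control library 2. Their control values were thus near the floor, and the added 1 shaped their profiles. With 4 libraries, many genes share a profile by their group alone.

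Other genes of the choroid plexus were read from a list of 38, of which 37 were tested. Of these, 24 were called higher and 2 lower, against 28.6% and 16% of all tested genes. The median log2 fold change was 2.85. Among 15 genes of the cell surface or secretion, 12 were called higher and 0 lower. Igfbp2, an insulin-like growth factor binding protein released by the choroid plexus, was at 78.1 and 184 normalized counts in controls and 6295 and 7456 with tamoxifen, a log2 fold change of 5.82 (limma, BH-adjusted p = 2.12e-05). Ecrg4, a secreted peptide precursor of this epithelium, was at 20.5 and 52.6 in controls and 148 and 609 with tamoxifen (3.15). Steap1, a metalloreductase, was at 6.85 and 5.01 in controls and 475 and 446 with tamoxifen (6.07). The tamoxifen libraries lay above the controls for all 3.

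Among 18 transporters and enzymes of ion and fluid transport, 10 were called higher and 2 lower, with a median of 1.78. The shares of all tested genes were 28.6% and 16%. Car2, a carbonic anhydrase, was at 4757 and 5189 normalized counts in controls and 15244 and 12576 with tamoxifen (log2 fold change 1.48). Atp1b1, a subunit of the sodium pump, was also called higher at 2.08. Slc4a2, an anion exchanger, was at -0.40 and not called. The sign of Slc4a2 turned with equal totals. The 2 genes called lower were Car14, a carbonic anhydrase, at -2.32, and Trpv4, a cation channel, at -2.16. Car14 was at 1245 and 1193 normalized counts in controls and 253 and 234 with tamoxifen.

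Of 4 transcription factor genes of the choroid plexus and its embryonic source, the roof plate, 2 were called higher, against 28.6% of all tested genes. Otx2 was at 5.48 and 28.8 normalized counts in controls and 483 and 769 with tamoxifen (log2 fold change 5.46, limma BH-adjusted p = 0.00043). Msx2 had 3 reads in the controls together and 288 with tamoxifen, a ratio of 63.4 with a 95% exact counting interval from 21.5 to 309. Lmx1a had a log2 fold change of 2.45 and was not called (limma, BH-adjusted p = 0.0692). Msx1 was at -0.64 and was not called.

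Genes of multiciliated cells, read for comparison with Foxj1, numbered 41, of which 39 were tested. In all, 32 were called higher and 0 lower, against 28.6% and 16% of all tested genes. The median log2 fold change was 3.07. It was 2.99 with the 2 genes at or under 3 reads in each control library set to their lower bound. Of 28 genes of motile cilia and ependyma, 26 were called higher at a median of 3.63, or 3.44 with 1 such gene at its bound, and the other two were Dnai2 and Zmynd10. Ccdc153, a gene of motile cilia, was called at 4.20, Rsph1, a radial spoke protein gene, at 4.46, Rarres2, the gene of chemerin, at 2.11 and Cfap126 at 2.05. All 28 were higher in tamoxifen library 2 than in tamoxifen library 1, as Foxj1 was. Among 11 tested factors of multiciliation, 6 were called higher. Myb, which acts early in multiciliated cells and in blood cell precursors, was at 19.2 and 8.76 normalized counts in controls and 1037 and 918 with tamoxifen (6.12). The 5 not called were Rfx2 at 0.82, E2f4 at 0.63, Rfx3 at 0.45, E2f5 at 0.20 and Deup1, a gene of centriole amplification in multiciliated cells, at -0.73. Deup1 was at 54.8 and 120 normalized counts in controls and 28.2 and 83.4 with tamoxifen, so its groups overlapped, and the sign of E2f5 turned under quantile normalization. Mcidas and Cdc20b were below the filter.

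Counts of both lists fell when a tamoxifen library was left out. Without tamoxifen library 1, 11 of 37 choroid plexus genes were called higher and 2 lower, and 12 of 39 ciliary genes were called higher, against 14.8% of all tested genes called higher. Without tamoxifen library 2, 8 choroid plexus genes were called higher and 2 lower, and 6 ciliary genes were called higher, against 12.5% of all tested genes called higher. Under quantile normalization the calls were 18 higher and 4 lower for choroid plexus genes, and 23 higher and 2 lower for ciliary genes, against 23.1% higher and 25.8% lower among all tested genes.

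Paralogs of the 8 genes moved in both directions, with 8 of 21 tested called higher and 6 lower, at a median of 0.63. Of all tested genes 28.6% were called higher and 16% lower. Among chloride intracellular channel genes, Clic5 was called lower at -3.53 and Clic4 at -1.68, and Clic1 was at -0.37 with a sign that turned under both other scalings, whereas Clic6 was called higher. Among aquaporins, Aqp4, the water channel of astrocyte endfeet and ependyma, was at 485 and 581 normalized counts in controls and 4983 and 12397 with tamoxifen (log2 fold change 3.89), and Aqp11 was called lower at -2.95. Kcnj10, the potassium channel of astrocytes, was called higher at 2.04. Partners of the 8 genes, such as lysophosphatidic acid receptors, FGF receptors and thyroid hormone transporters, numbered 22. Of the 21 tested, 14 were called higher and 5 lower, with a median of 2.51, against the same shares of all tested genes. Fgf23, the ligand of the klotho receptor complex, was below the filter. Slco1c1, a thyroid hormone transporter of brain endothelium, was called lower at -2.60. Plpp3, a lipid phosphatase that breaks down lysophosphatidic acid, was called higher at 2.54, and the thyroid hormone receptor gene Thra was at -0.94 and not called.

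**Figure D4:**
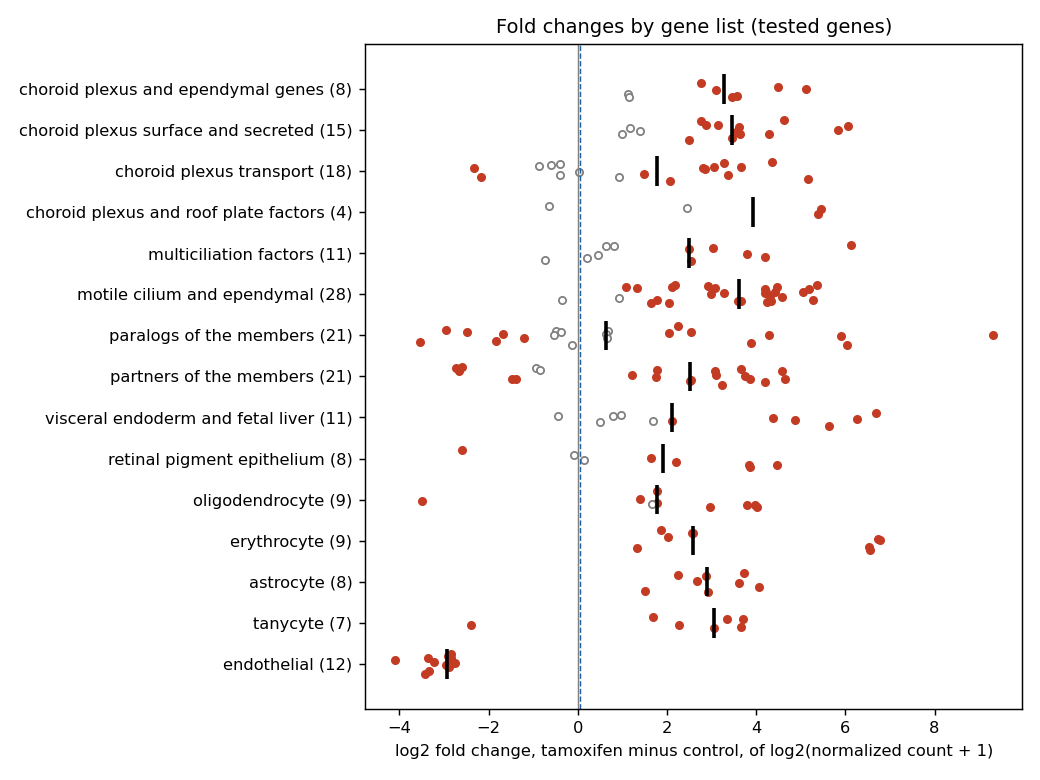
Log2 fold changes of the tested genes of each list (number tested in brackets), with filled red points for called genes, open points for the rest, a black bar at the median of the list and a dashed line at the median of all tested genes (0.05). The 8 genes centre at 3.27, the genes of motile cilia and ependyma at 3.63 and the endothelial genes at -2.94.

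Several of the 8 genes are also made by other cells, and markers of those cells differed between the groups as well. For all tested genes the shares called were 28.6% higher and 16% lower. All 8 astrocyte genes were called higher, and their summed normalized counts were 28782 and 34339 in controls and 146820 and 303210 with tamoxifen. Slc1a3 and Slc1a2, their glutamate transporters, had log2 fold changes of 3.73 and 2.87. All 9 erythrocyte genes were called higher, with sums of 19274 and 39237 in controls and 181770 and 118560 with tamoxifen, and with Hbb-bs at 2.02 and Hba-a1 at 1.86. Near-identical globin copies can share reads, so single globin genes are uncertain. Like Aqp1, all 9 were lower in tamoxifen library 2 than in library 1 and higher in control library 2 than in control library 1. Library 2 was the higher for 54.5% of all tested genes in controls and for 42% with tamoxifen. All 12 endothelial genes were also lower in tamoxifen library 2, and 6 of them were higher in control library 2. Of 7 tested genes used for tanycytes, the specialised ependymal cells of the hypothalamus, 6 were called higher, with Dio2 at 3.66, and Adm was called lower at -2.40. Sums over the listed genes were 4520.1 and 3936 in controls and 5945 and 10961 with tamoxifen, and without Adm they were 567 and 897 in controls and 5157 and 10417 with tamoxifen.

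Of 8 tested genes of the retinal pigment epithelium, which also expresses Ttr and Kcnj13, 5 were called higher and 1 lower. The shares of all tested genes were 28.6% and 16%. The higher ones were Rlbp1 at 4.46, Rpe65, Best1, Mitf and Trpm1, and the lower one was Stra6 at -2.59. Sums over the listed genes were 6298 and 7392 in controls and 2746 and 2242 with tamoxifen, and without Stra6 they were 308 and 292 in controls and 1388 and 1377 with tamoxifen. Of 11 tested genes of visceral endoderm and fetal liver, which also make Ttr, 6 were called higher and 0 lower, with sums of 1394 and 1760 in controls and 5137 and 4932 with tamoxifen. Cubn, an endocytic receptor, was called at 6.26, and Trf, the gene of transferrin, was at 0.79 and not called. Of 9 oligodendrocyte genes, a cell type that also expresses Enpp2, 7 were called higher and 1 lower. Cnp was called at 1.41 and Mal at -3.50. The sums were 16035 and 16164 in controls and 7692 and 6707 with tamoxifen, most of it Mal. Without Mal they were 1118 and 1397 in controls and 5402 and 5959.7 with tamoxifen. The 12 endothelial genes took 2.47% and 2.33% of the normalized counts in controls and 0.517% and 0.268% with tamoxifen, with Cldn5 at -2.97 and Ly6c1 at -3.36. The part of any of these cells in the levels of the 8 genes was not tested.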

How the data were processed

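RNA of cerebral cells, described by the study as CD31+CD45- and in the labels as tdTomato+, was sequenced in 2 control and 2 tamoxifen libraries. Per the labels, libraries were made with a stranded mRNA kit, and the submitters' processing notes name STAR 2.7.10a, DESeq2 1.36.0 and GRCm39. The authors left out genes with low counts and deposited DESeq2-normalized counts, a signal per gene and library. The annotation release, the strand setting and the limit for low counts are not given in the sources used here. Columns with the letter C were read as control and those with the letter A, which no label spells out, as tamoxifen.

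Reads were recovered by dividing each column by its smallest step, with 100% of values within 0.1 reads of a whole number. Under R 4.3.3, limma 3.58.1 was fitted to log2(normalized count + 1) for every gene whose mean reached 10, using lmFit and then eBayes with its trend option, and p-values were BH-adjusted over all of these genes. The fit was also run on simulated data of 17718 genes. There, 154 of 196 tested genes with a 4-fold change were called, and so were 8 unchanged genes. Far fewer genes changed in the simulation than were called in these data, so it cannot show how the fit behaves here. Levels were summarised in Python 3.11.15, and locations, transcript lengths and promoters came from GENCODE M39 and GRCm39.

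The 8 genes, the lists and the tests were chosen with earlier results of these data known. Genes named from a list are those with the highest mean normalized count per kilobase of canonical transcript over the 4 libraries (4 a list, 6 paralogs, 4 partners, 2 for other cell types) and the called genes of lists with 5 or fewer. Some genes of this rule are not reported here. Car14, Trpv4, Dnai2, Zmynd10, Mcidas, Cdc20b, Rfx3, Deup1, Fgf23 and the called genes of the retinal pigment epithelium other than Rlbp1 and Stra6 were named after their values were seen. The fit was repeated without each library, with a replicate block, without the trend, with equal totals or quantile normalization, without the filter or with it at 100, with a pseudocount of 0.5 or 5, by the adjusted p alone, and on recovered reads with DESeq2 1.42.0 and with edgeR 4.0.16.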

Additional observations from a re-analysis of the deposited data

How the results depend on the processing

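Leaving out each library in turn gave between 1 and 7 called genes of the 8 (6 with all libraries), between 10 and 30 choroid plexus genes (26) and between 6 and 32 ciliary genes (32). Each count was lowest without tamoxifen replicate 2, followed by that without tamoxifen replicate 1. The shares of all tested genes called higher in these fits stand beside the same lists in the Results. The lone sample of a group is then assumed to vary like the other group, and fewer genes passed among all genes as well. Kcnj13 changed sign without tamoxifen replicate 2 (-0.043) and reached 2.339 without tamoxifen replicate 1. Mgp changed sign with equal totals (0.079) and was at -0.648 under quantile normalization. The cause was not tested.

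With no variance trend 4 of the 8 genes were called, Ttr and Kl being lost at adjusted p of 0.0734 and 0.0642 (limma, BH). All 4 were higher, against 27.5% of all tested genes called higher and 43.6% called in either direction. Enpp2 passed the adjusted p in 9 of 14 alternatives, with log2 fold changes from 0.28 to 1.997 over all of them. Kcnj13 was not tested under the filter at 100. Against the values as deposited, the log2 fold change of a gene moved by a median of 0.47 with equal totals and of -0.77 with quantile normalization. The median log2 fold change over all tested genes was 0.517 with equal totals and -0.201 with quantile normalization. The split of calls among all tested genes was 5867 higher and 3284 lower as deposited, 7206 and 1838 with equal totals, and 4723 and 5276 with quantile normalization. Relative to these shifts, the direction of the 6 called genes held under both scalings.

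The labels give no batch or litter behind the replicate numbers. The differences of replicate 2 minus replicate 1 correlated between groups at 0.0251 over 20485 genes. With the replicate block, 7 of the 8 genes, 29 choroid plexus and 32 ciliary genes were called, against 46.5% of all tested genes. Enpp2 was added. The block ties libraries together by number, which the labels do not give, and its p-values lean on variance shared over genes. The added call of Enpp2 is therefore weak. Depth limits Kcnj13, which had as few as 6 reads in a library.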
